A study of Homo sapiens with 16 samples.

Results

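The 10 genes described here encode the alpha- and beta-tubulins of HCT116 cells, an established epithelial line from a human colorectal carcinoma. They are *TUBA1A*, *TUBA1B*, *TUBA1C* and *TUBA4A* for alpha-tubulin and *TUBB*, *TUBB2A*, *TUBB2B*, *TUBB3*, *TUBB4B* and *TUBB6* for beta-tubulin, 10 of the 33937 genes counted. The set was picked because *TUBA1A* was lower in the NAA40 knockdown line, so the differences between the lines that follow are descriptions of the choice and carry no test. RNA-seq was performed on HCT116 cells stably carrying either a scrambled (SCR) short hairpin RNA or one against NAA40 (NAA40-KD), an enzyme that acetylates the N-terminus of histones H4 and H2A, where doxycycline (dox) switches the hairpin on. Each line was grown for 96 h with 1 μg/ml doxycycline or without it, which gave 4 libraries for each of SCR (−dox) and SCR (+dox) in the control line, and for each of NAA40-KD (−dox) and NAA40-KD (+dox) in the knockdown line. All 4 groups carry the inducible system. The sequencing is shown under the name NAA40-KD2 for the knockdown, so an effect of the hairpin and a difference between these lines cannot be told apart.

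Microtubules are hollow polymers of alpha- and beta-tubulin pairs, and they form the mitotic spindle and the tracks for intracellular transport. The tubulin genes of each class encode nearly the same protein and differ mostly at the C-terminal tail, where enzymes add or remove glutamate and tyrosine. Cells adjust tubulin mRNA to the amount of free tubulin: the ribosome-bound factor TTC5 recognizes the N-terminus of a nascent tubulin, and with SCAPER and the CCR4-NOT complex, through CNOT11, it brings about decay of the mRNA being translated. In epithelial cells *TUBA1B*, *TUBA1C*, *TUBB* and *TUBB4B* are the usual abundant forms, while *TUBA1A*, *TUBB2A*, *TUBB2B* and *TUBB3* are best known from neurons.

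Total counts per library ran from 11065606 to 13855486. *NAA40* went against the labels, as its normalized level was 12.6, 11.6, 9.27 and 13.8 CPM (counts scaled to a common library size) in the 4 libraries of NAA40-KD (−dox), while the 4 of NAA40-KD (+dox) lay between 28.7 and 31.9 CPM and the SCR libraries lay between 25.9 and 34.5 CPM. Groups are therefore called by their labels throughout, and a direction between the libraries labelled (+dox) and (−dox) of the knockdown line holds for the labels only. The library labelled NAA40-KD (−dox) replicate 4 stood apart, with the highest level of its group for 10 of the 10 tubulin genes and the highest of all 16 libraries for 5 of them, so results that rest on it are also given without it where a call or a count changes. It differed from its group over all genes too. Chi-square over its degrees of freedom was 128 to 140 in its pairs within the group, and 2.43 to 7.16 in the other pairs of the group. The summed level of 8 epithelial markers ran from 4361 to 6088 CPM in the SCR libraries, from 4683 to 4972 CPM in NAA40-KD (+dox) and from 5981 to 12516 CPM in NAA40-KD (−dox), with 0 of the 8 at 0 counts in any group. The median log2 fold change of the 8, NAA40-KD (−dox) against SCR (−dox), was 0.68, and 0.36 without replicate 4. Of 11 markers of leukocytes, endothelium, fibroblasts and neurons, 8 had a mean under 1 CPM in each group, and their sum ran from 138.5 to 252.9 CPM over the 16 libraries. Most of that sum came from *SYT1*, a synaptic vesicle gene, with group means from 72.5 to 99.3 CPM, and *COL1A1*, a fibroblast collagen gene, with group means from 72.4 to 105.0 CPM. The part of either marker list in the tubulin results was not tested.

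The coding sequences bear on which reads can be told apart, and on the N-terminus that TTC5 reads. The start of the coding sequence, with the 4 codons of the recognized N-terminus in capitals, is shown for *TUBA1A* and *TUBB2A*, which stood below SCR, and for an abundant gene of each class (GENCODE release 29 transcripts on GRCh38, first 30 coding bases on the sense strand).
TUBA1A start: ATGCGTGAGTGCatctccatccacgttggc
TUBA1B start: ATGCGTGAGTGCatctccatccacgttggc
TUBB2A start: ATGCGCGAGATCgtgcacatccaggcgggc
TUBB start: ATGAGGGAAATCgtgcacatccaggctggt

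The fourth codon was TGC, for cysteine, in 4 of the 4 alpha-tubulin genes and ATC, for isoleucine, in 6 of the 6 beta-tubulin genes, and *TUBA1A* and *TUBA1B* did not differ in these 30 bases.

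The coding sequences of *TUBA1A* and *TUBA1B* as a whole were 97.28% identical. *TUBA1A* and *TUBA1C* were 96.02% identical, and *TUBB2A* and *TUBB2B* were 98.13% identical with an unbroken identical run of 725 bases. Of all 50-base windows in the annotated transcripts, 22.0% of those of *TUBA1A*, 23.1% of *TUBA1B*, 15.6% of *TUBA1C*, 54.1% of *TUBB2A* and 43.5% of *TUBB2B* also occurred in another of the 10 genes, whereas 0% of those of *TUBA4A* and *TUBB* did. The handling of reads that map to several places is not given in the sources used here, so counts of the genes with shared windows are uncertain by an amount that was not tested.

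*TUBA1A* lies on chromosome 12 (GRCh38, 49184796 to 49189324, minus strand) and its exons overlap those of *TUBA1C* on the other strand over 490 bases. *TUBA1B* lies on the same chromosome at 49127782 to 49131397 (minus strand) and *TUBA1C* at 49188736 to 49274603 (plus strand). *TUBB2A* (3153669 to 3157526) and *TUBB2B* (3224261 to 3231730) are neighbours on the minus strand of chromosome 6, and *TUBB2A* overlaps no annotated gene. *TUBB3* shares 1584 exonic bases with *AC092143.1* on the same strand, so reads from the pair cannot be told apart. Strand setting is not given in the sources used here either, which leaves the counts within overlapping exons open to both genes.

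Levels were compared between genes per length, as RPKM, the CPM per kilobase of exon. In the SCR (−dox) libraries *TUBB4B* had the highest level at 225 RPKM and *TUBB* followed at 206 RPKM, and the ranges of this pair overlapped. *TUBA1B* stood at 63.4 RPKM and *TUBA1C* at 40.2 RPKM, with ranges apart from each other. *TUBB6* followed at 28.9 RPKM, with a range that met that of *TUBA1C*, and *TUBB2A* at 17.2 RPKM, while *TUBA1A* at 9.51 RPKM and *TUBA4A* at 8.72 RPKM overlapped. *TUBB3* stood at 1.15 RPKM and *TUBB2B*, with 2 to 14 counts in each of the 16 libraries, at 0.276 RPKM. The order was the same in SCR (+dox). In NAA40-KD (+dox), *TUBA1A* at 3.02 RPKM lay below *TUBA4A* at 7.05 RPKM with ranges apart, whereas in NAA40-KD (−dox) these 2 genes overlapped.

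*TUBA1A* was present at 33.6, 35.9, 26.5 and 34.2 CPM in SCR (−dox) and at 36.1, 28.9, 42.0 and 35.4 CPM in SCR (+dox). It was present at 17.5, 20.5, 19.0 and 24.7 CPM in NAA40-KD (−dox) and at 9.82, 10.7, 10.3 and 10.5 CPM in NAA40-KD (+dox). The 8 knockdown-line libraries lay below the 8 SCR libraries, and the 4 labelled (+dox) lay below the 4 labelled (−dox). In bulk RNA, fewer cells with a transcript and less of it per cell cannot be told apart. The mean of NAA40-KD (+dox), 10.3 ± 0.370 CPM (SD, n = 4), was 28.97% of the SCR (+dox) mean of 35.6 ± 5.38 CPM, a log2 fold change of −1.79 ± 0.12 (SE). The mean of NAA40-KD (−dox), 20.4 ± 3.10 CPM, was 62.8% of the SCR (−dox) mean of 32.5 ± 4.16 CPM, a log2 fold change of −0.66 ± 0.17, and it was −0.78 ± 0.12 without replicate 4.

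**Figure D1:**
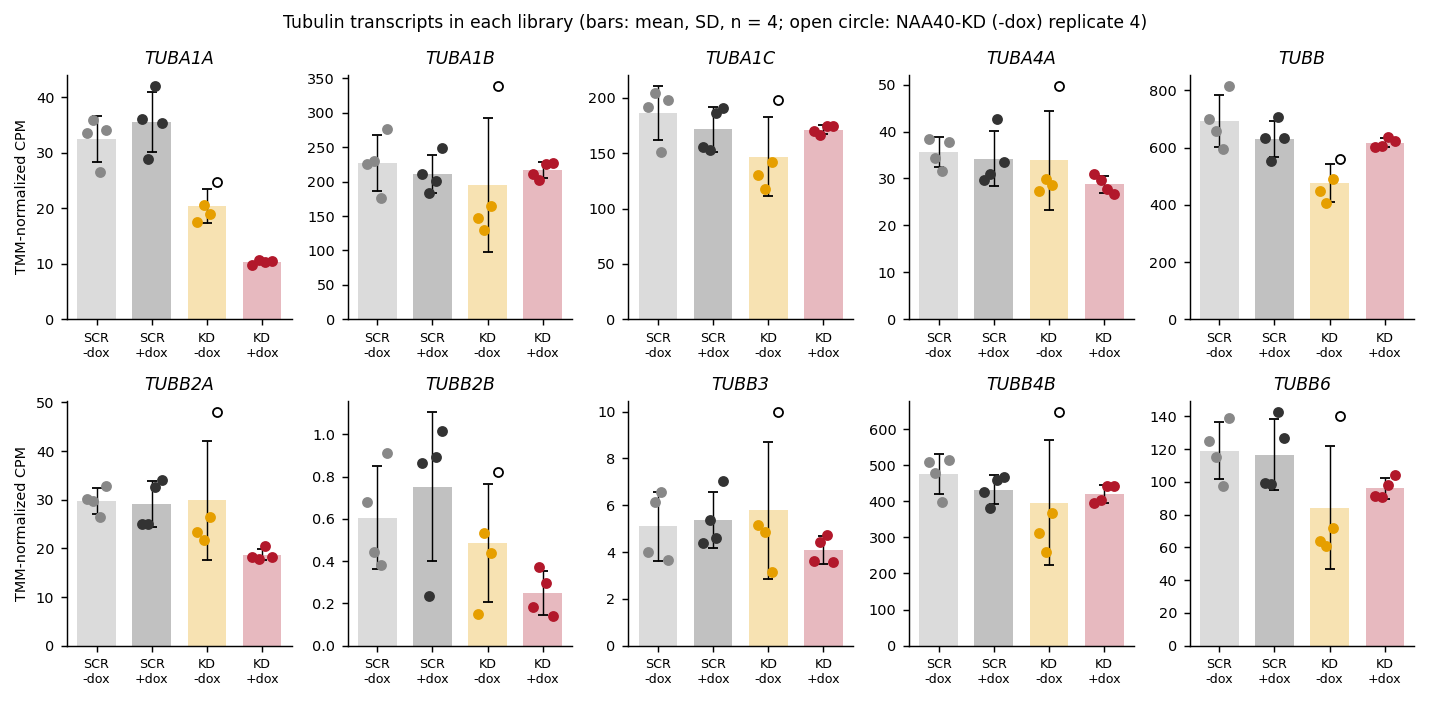
TMM-normalized CPM of the 10 tubulin genes in each of the 16 libraries, by group (KD is NAA40-KD), with bars for the mean, error bars for the SD (n = 4) and an open circle for NAA40-KD (−dox) replicate 4. *TUBA1A* was between 9.82 and 10.7 CPM in NAA40-KD (+dox) and between 26.5 and 42.0 CPM in the SCR libraries, while replicate 4 was the highest of its group in all 10 panels.

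The second gene below its SCR group was *TUBB2A*, a beta-tubulin. Its levels were 25.0, 25.0, 32.5 and 34.0 CPM in SCR (+dox) and 18.3, 17.8, 20.5 and 18.3 CPM in NAA40-KD (+dox), a log2 fold change of −0.64 ± 0.12. In NAA40-KD (−dox) it was present at 23.4, 21.7, 26.4 and 47.9 CPM, against 26.4 to 32.7 CPM in SCR (−dox), so these groups overlapped through replicate 4 and by a little without it. Its near-copy *TUBB2B* had 13 counts over the 4 libraries of NAA40-KD (+dox), 40 in SCR (+dox), 25 in NAA40-KD (−dox) and 30 in SCR (−dox), and the ranges overlapped between the lines.

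The abundant genes did not share this difference in the (+dox) libraries. *TUBA1B*, the main alpha-tubulin, was present at 211.7, 183.4, 201.4 and 248.5 CPM in SCR (+dox) and at 210.8, 202.5, 225.2 and 227.1 CPM in NAA40-KD (+dox), a log2 fold change of 0.03 ± 0.09. For *TUBA1C*, *TUBB* and *TUBB4B* the log2 fold changes were −0.00, −0.03 and −0.04, with SE of 0.09 each. The NAA40-KD (+dox) ranges of these 4 genes fell inside or across those of SCR (+dox). Between them lay *TUBA4A* at −0.25 ± 0.12, *TUBB6* at −0.28 ± 0.11 and *TUBB3*, with 40 to 97 counts per library, at −0.39 ± 0.18. In all, the groups did not overlap for 2 of the 10 genes, both lower. Over all 13869 genes tested, edgeR called 24.5% at an adjusted p under 0.05, 13.7% lower. That is another measure than overlap, and the share of all genes whose groups did not overlap was not computed. Nothing is read from the count of 2 since the comparison chose the set. The median log2 fold change was −0.25 over the 9 genes and −0.00 over all genes.

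**Figure D2:**
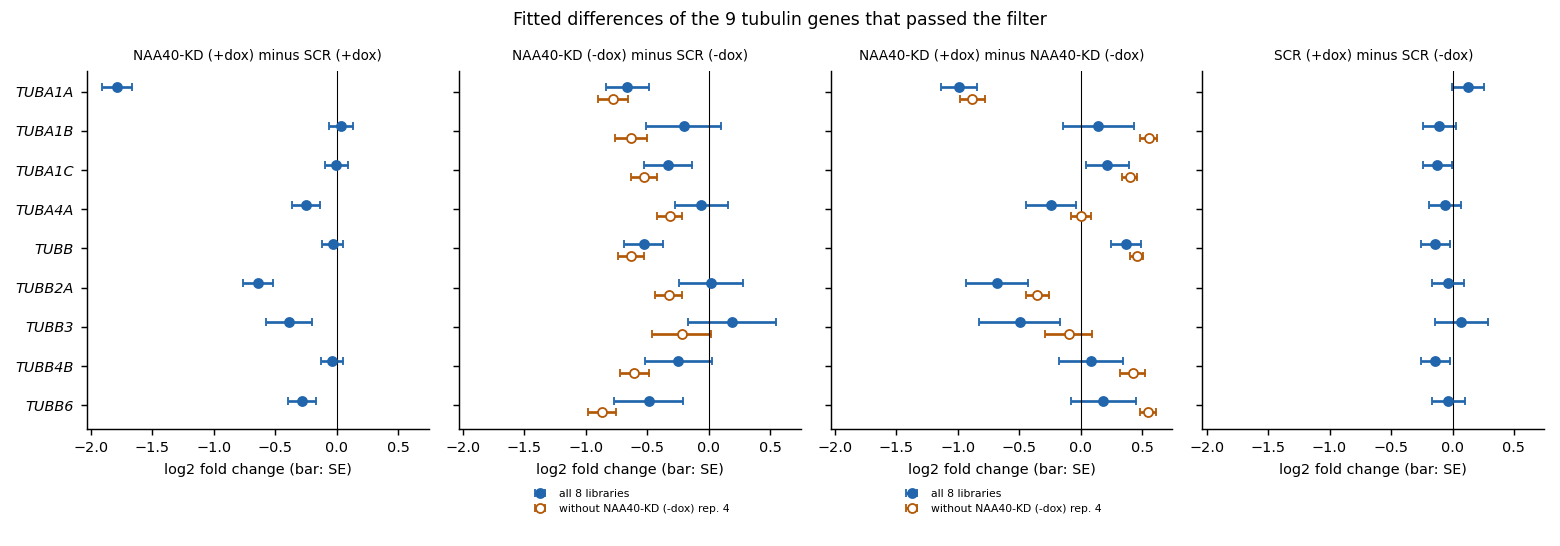
Fitted log2 fold changes (x axis, bars SE) of the 9 genes that passed the filter in 4 comparisons, with open circles for the fit without NAA40-KD (−dox) replicate 4. *TUBA1A* stood at −1.79 in the (+dox) libraries. The abundant genes stood below 0 in the (−dox) comparison and above 0 in the knockdown line, and farther from 0 once replicate 4 was left out.

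In the (−dox) libraries the abundant genes stood lower in 3 of the 4 NAA40-KD libraries. *TUBB*, the most counted tubulin mRNA, was present at 701.8, 659.7, 595.7 and 814.8 CPM in SCR (−dox) and at 450.1, 407.9, 488.8 and 562.0 CPM in NAA40-KD (−dox), so the groups did not overlap. *TUBB6* was present at 124.9, 115.1, 97.5 and 138.8 CPM in SCR (−dox) and at 64.0, 60.6, 72.1 and 140.1 CPM in NAA40-KD (−dox), where only replicate 4 reached the SCR range. *TUBA1B* was present at 147.6, 129.1 and 164.5 CPM in replicates 1 to 3 and at 338.4 CPM in replicate 4, which was the highest of all 16 libraries. *TUBB4B* behaved alike, at 312.0, 259.7 and 368.0 CPM in replicates 1 to 3 and 646.0 CPM in replicate 4, against 396.6 to 515.5 CPM in SCR (−dox).

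Over all 8 libraries of the (−dox) comparison the groups did not overlap for 2 of the 10 genes, where edgeR called 6.42% of all genes at an adjusted p under 0.05. Without replicate 4 the groups did not overlap for 7 of the 10, all lower, where 36.5% of all genes were called and 19.4% were called lower. The log2 fold changes without replicate 4 ran from −0.87 ± 0.11 for *TUBB6* to −0.22 ± 0.24 for *TUBB3*, with a median of −0.61 against −0.01 over all genes. The shares called are another measure than overlap, and the share of all genes whose groups did not overlap was not computed. As this comparison is the one that chose the set, in the other doxycycline state, the counts of genes without overlap are a description.

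The doxycycline label in the SCR line was not used to choose the set. Between SCR (+dox) and SCR (−dox) edgeR called 0 of the 9 genes, with 0 of the 9 at an unadjusted p under 0.05, against 0% of all 13882 genes (271 at an unadjusted p under 0.05, and 0 called by DESeq2 or limma-voom). *TUBA1A* had a log2 fold change of 0.13 ± 0.13 (edgeR, adjusted p = 1.00), and the other 8 genes ran from −0.14 for *TUBB* and *TUBB4B* to 0.07 for *TUBB3*. An SE of 0.12 to 0.22 on the log2 scale sets the size of change that this comparison could show.

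Within the knockdown line, (+dox) against (−dox), *TUBA1A* had a log2 fold change of −0.99 ± 0.15, and −0.88 ± 0.10 without replicate 4, given without a test because its level in this line chose the set. Of the other 8 genes, 0 were called over all 8 libraries (2 at an unadjusted p under 0.05), against 10.2% of all genes. *TUBB* stood at 0.37 ± 0.12 (edgeR, adjusted p = 0.092) with the (+dox) libraries all above the (−dox) ones, and *TUBB2A* at −0.68 ± 0.25 (adjusted p = 0.12) with all 4 below. Replicate 4 differed from its group over all genes, but it was set apart here by its high tubulin levels. Leaving it out thus raises each tubulin difference, (+dox) minus (−dox). The tubulin counts without it are therefore a description. Without replicate 4, 6 of the 8 were called, against 52.4% of all genes. *TUBA1B* (0.55 ± 0.07), *TUBB6* (0.55 ± 0.07), *TUBB* (0.46 ± 0.05), *TUBB4B* (0.42 ± 0.10) and *TUBA1C* (0.40 ± 0.06) were then higher in the libraries labelled (+dox), 5 of 8 against 25.8% of all genes called higher. *TUBB2A* was then lower, at −0.35 ± 0.09 (edgeR, adjusted p = 0.0026), against 26.6% of all genes called lower, while *TUBA4A* (0.00 ± 0.08) and *TUBB3* (−0.10 ± 0.19) were not called.

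Whether the doxycycline label moved a gene differently in the lines was tested on all 16 libraries. The difference of the log2 fold changes, NAA40-KD minus SCR, was −1.11 ± 0.20 for *TUBA1A*, again a description, and 0 of the other 8 genes passed the test, against 9.22% of all genes. *TUBB* came nearest at 0.51 ± 0.17 (edgeR, adjusted p = 0.073), followed by *TUBB2A* at −0.64 ± 0.29 (adjusted p = 0.18). Without NAA40-KD (−dox) replicate 4, 5 of the 8 were called, against 24.2% of all genes, and all 5 were positive, against 11.9% of all genes called higher, namely *TUBA1B* (0.65 ± 0.17), *TUBB* (0.59 ± 0.14), *TUBB6* (0.57 ± 0.17), *TUBB4B* (0.56 ± 0.15) and *TUBA1C* (0.51 ± 0.14). The comparisons share libraries, so these counts are not independent of each other, and those without replicate 4 are again a description.

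The summed level of the alpha-tubulin genes was nearly the same between the lines in the (+dox) libraries. It was 114.9 ± 12.4 RPKM (SD, n = 4) in SCR (+dox) and 107.6 ± 3.804 RPKM in NAA40-KD (+dox), against 121.9 ± 17.7 RPKM in SCR (−dox). In NAA40-KD (−dox) it was 81.2, 74.8, 89.2 and 156.9 RPKM, so 3 libraries lay below all others and replicate 4 above all others. The summed beta-tubulin level was 478.9 ± 56.7 RPKM in SCR (−dox), 439.6 ± 42.6 RPKM in SCR (+dox) and 418.4 ± 18.2 RPKM in NAA40-KD (+dox), and 312.1, 273.1, 353.6 and 537.7 RPKM in the libraries of NAA40-KD (−dox). The ratio of the beta to the alpha sum stayed within 3.43 and 4.17 over the 16 libraries, replicate 4 included at 3.43. The size of this ratio rests on the exon lengths used, and it is not given here for other lengths.

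The doxycycline label did not move the sums beyond the spread of the libraries. In the knockdown line the difference, (+dox) minus (−dox), was 7.07 RPKM for alpha (exact two-sided permutation test, p = 0.80) and 49.3 RPKM for beta (p = 0.49, same exact test), where the smallest p that 4 libraries against 4 allow is 0.029. In SCR it was −6.95 RPKM for alpha (p = 0.54, exact permutation test) and −39.3 RPKM for beta (p = 0.29, exact permutation test). Without NAA40-KD (−dox) replicate 4 the differences in the knockdown line were 25.9 RPKM and 105.5 RPKM, each at the smallest p that 4 libraries against 3 allow in this exact permutation test, 0.057. As replicate 4 was set apart by its high tubulin levels, these differences are a description.

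*TUBA1A* made up 7.83 ± 0.46% of the alpha sum in SCR (−dox), 9.06 ± 1.04% in SCR (+dox), 6.29 ± 1.40% in NAA40-KD (−dox) and 2.81 ± 0.15% in NAA40-KD (+dox) (SD, n = 4). *TUBA1B* held 51.4 to 56.2% and *TUBA1C* 32.2 to 34.4% of that sum as group means, so the alpha sum was set mainly by the latter pair. Of the beta sum, *TUBB4B* held 46.6 to 49.7% and *TUBB* 39.9 to 44.0% as group means, and *TUBB2A* held 3.82 ± 0.37% in SCR (+dox) and 2.59 ± 0.12% in NAA40-KD (+dox). *TUBB2B* and *TUBB3* together stayed under 1% of it in every group. All these shares rest on the length of all annotated exons of a gene. With the length of a single transcript per gene, the SCR (−dox) shares moved from 51.9 to 59.1% for *TUBA1B*, 33.1 to 26.5% for *TUBA1C* and 6.02 to 9.15% for *TUBB6*. The *TUBA1A* share was then 7.37% in SCR (−dox), 8.52% in SCR (+dox), 5.91% in NAA40-KD (−dox) and 2.62% in NAA40-KD (+dox).

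**Figure D3:**
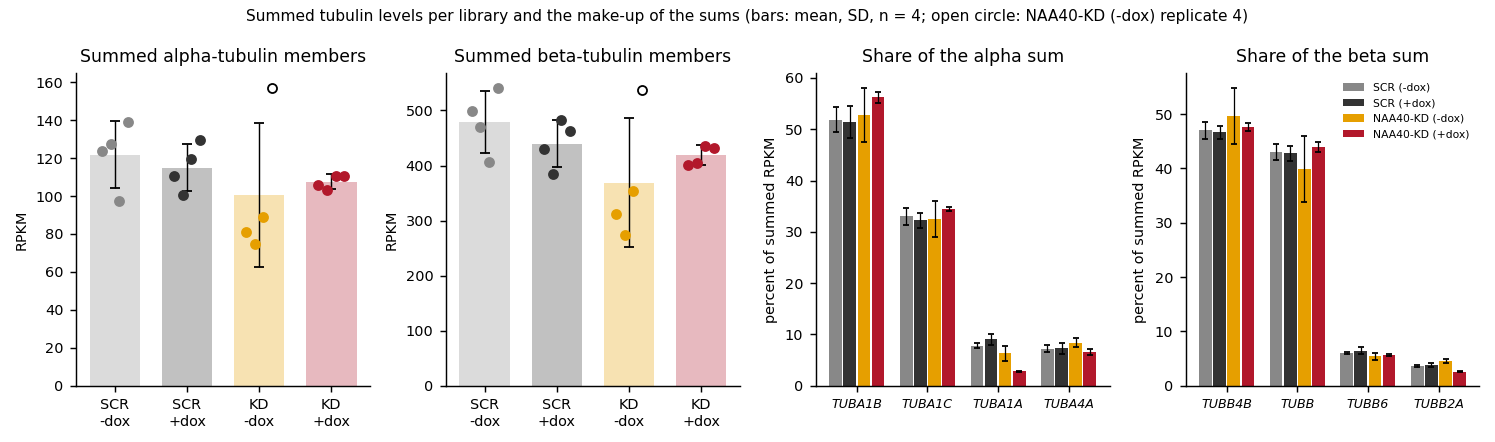
Summed RPKM of the alpha- and beta-tubulin genes in each library (left panels, with mean and SD, n = 4, and an open circle for NAA40-KD (−dox) replicate 4) and the mean percent of each sum held by its 4 most abundant genes (right panels, error bars SD). The sums overlapped between SCR (+dox) and NAA40-KD (+dox), while the *TUBA1A* share was 9.06% in the former and 2.81% in the latter.

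The genes of tubulin folding and mRNA control were read from lists chosen from general knowledge of the pathway, with earlier results of these data known. Of 14 subunits of the CCT chaperonin and of prefoldin, which fold newly made tubulin, 2 were lower in NAA40-KD (+dox) than in SCR (+dox) and 12 were not called, where 24.5% of all genes were called. *PFDN2*, a prefoldin subunit, fell by 0.72 on the log2 scale (SE 0.09, edgeR adjusted p = 1.2e-05) and *PFDN1* by 0.51 (SE 0.10, adjusted p = 0.0016), and none of the 8 CCT subunits was called. In the (−dox) comparison 1 of 14 was called, against 6.42% of all genes, namely *CCT5* with a log2 fold change of −0.51 ± 0.13 (adjusted p = 0.049). Without replicate 4, 5 of 14 were called, all lower, against 36.5% of all genes, and these were *CCT2*, *CCT3*, *CCT5*, *PFDN1* and *PFDN2*. Of the 9 calls of list genes named in the (−dox) comparison, 6 to 9 were lost when any 1 library other than NAA40-KD (−dox) replicate 4 was left out. *CCT5* was higher in NAA40-KD (+dox) than in NAA40-KD (−dox) by 0.41 ± 0.11 (adjusted p = 0.040), 1 of 14 called against 10.2% of all genes. It was higher by 0.38 without replicate 4, where 7 of 14 were called, 5 higher and 2 lower, against 52.4% of all genes. Of 6 tubulin cofactors tested, which assemble the alpha-beta pair, 0 were called in these 3 comparisons over all libraries. Without replicate 4, 2 of the 6 were called in the (−dox) comparison, against 36.5% of all genes. These were *TBCD*, lower at −0.86 (edgeR, adjusted p = 6.6e-06), and *ARL2*, higher at 0.68 (adjusted p = 2.9e-04). Between the knockdown-line groups 3 of the 6 were then called, *TBCD* at 0.81, *ARL2* at −0.48 and *TBCB* at −0.18, against 52.4% of all genes.

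The 3 genes of tubulin mRNA decay were not called in the (+dox) comparison of the lines, where 24.5% of all genes were called. *TTC5* had a log2 fold change of −0.19 ± 0.10 (edgeR, adjusted p = 0.19), *SCAPER* one of 0.30 ± 0.13 (adjusted p = 0.11) and *CNOT11* one of −0.18 ± 0.09 (adjusted p = 0.16). *CNOT11* was low in NAA40-KD (−dox), at 41.1 ± 5.38 CPM against 74.5 ± 5.30 CPM in SCR (−dox), and that difference of −0.85 ± 0.15 passed the test (adjusted p = 0.012). This was 1 of 3 called, against 6.42% of all genes. *CNOT11* stood at 68.8 ± 2.63 CPM in NAA40-KD (+dox), higher than in NAA40-KD (−dox) by 0.74 ± 0.13 (adjusted p = 0.011), again 1 of 3, against 10.2% of all genes. Without replicate 4 *TTC5* was called too in the (−dox) comparison, at −0.30 (adjusted p = 0.040), making 2 of 3 against 36.5% of all genes. *SCAPER* was then called too between the knockdown-line groups, at 0.43 (adjusted p = 0.015), making 2 of 3 against 52.4% of all genes.

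Of 16 enzymes that modify tubulin or help to, 5 were called in the (+dox) comparison of the lines, 3 lower and 2 higher, against 24.5% of all genes called. *AGBL5*, a carboxypeptidase that trims glutamate side chains, fell by 0.43 (SE 0.11, edgeR adjusted p = 0.0075), and *SIRT2*, a deacetylase of alpha-tubulin, fell by 0.41 (SE 0.10, adjusted p = 0.0089). *TTLL12*, of the tubulin tyrosine ligase-like family, was higher by 0.31 ± 0.08 (adjusted p = 0.010). *TTLL1*, the catalytic subunit of a polyglutamylase, was present at 9.68 ± 0.74 CPM in NAA40-KD (−dox) and at 4.49 to 5.44 CPM as means of the other groups, higher than in SCR (−dox) by 1.03 ± 0.21 (adjusted p = 0.021). *TTLL4*, a glutamylase, was also higher there, by 0.59 ± 0.14 (adjusted p = 0.039). These were 2 of 16 called, against 6.42% of all genes, and without replicate 4 there were 3 higher and 2 lower, against 36.5% of all genes. Between the knockdown-line groups *TTLL1* fell by 1.11 (SE 0.14, adjusted p = 0.0036) and the alpha-tubulin acetyltransferase *ATAT1* fell by 0.65 (SE 0.16, adjusted p = 0.031) in the libraries labelled (+dox), and these were 2 of 16 against 10.2% of all genes. Without replicate 4, 7 of 16 were called, 5 lower and 2 higher, against 52.4% of all genes.

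Microtubule nucleation starts from the gamma-tubulin ring complex. *TUBG1*, its gamma-tubulin, had a log2 fold change of −0.23 ± 0.09 in the (+dox) comparison and was not called (edgeR, adjusted p = 0.062). Of the 11 genes of the complex 1 was lower and 1 was higher there, against 13.7% and 10.9% of all genes. *MZT1* was lower by a log2 fold change of −1.23 ± 0.16 (adjusted p = 2.4e-05) and *TUBGCP4* was higher by 0.35 ± 0.11 (adjusted p = 0.030). *MZT1*, a small subunit, stood at 15.1 ± 1.08 CPM in NAA40-KD (+dox) and at 35.6 ± 9.59 CPM in SCR (+dox). In NAA40-KD (−dox) its lowest library was at 9.22 CPM and its highest at 45.01 CPM, and 0 of the 11 genes were called against SCR (−dox), where 6.42% of all genes were called. Without replicate 4, 3 of the 11 were called against 36.5% of all genes, with *MZT1* higher at 0.38 (edgeR, adjusted p = 0.022), opposite to its (+dox) direction, and *TUBG1* (−0.52, adjusted p = 2.3e-04) and *TUBGCP3* (−0.45, adjusted p = 5.2e-04) lower. Of 5 other tubulin genes tested, which include *TUBG1* and *TUBG2* of the ring complex, 1 was called in the (+dox) comparison, against 24.5% of all genes. This was *TUBB4A*, lower by −0.48 ± 0.12 (adjusted p = 0.0057).

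Proteins that bind the microtubule lattice or its ends included the largest list difference. *MAP1B*, a lattice-binding protein best known from neurons, was present at 69.8 ± 12.6 CPM in SCR (+dox), 23.8 ± 1.73 CPM in NAA40-KD (+dox), 60.3 ± 14.04 CPM in SCR (−dox) and 43.4 ± 6.22 CPM in NAA40-KD (−dox). Its log2 fold change was −1.55 ± 0.12 in the (+dox) comparison (edgeR, adjusted p = 9.2e-08) and −0.87 ± 0.15 between the knockdown-line groups (adjusted p = 0.0086). The end-binding genes *MAPRE2* (−0.55 ± 0.10, adjusted p = 9.4e-04) and *MAPRE3* (−0.49 ± 0.12, adjusted p = 0.0052) were lower as well in the (+dox) comparison, making 3 of 24 called, against 24.5% of all genes. In the (−dox) comparison *TPX2*, a spindle assembly factor, was lower (−0.61 ± 0.14, adjusted p = 0.036) and *EML2* was higher (1.04 ± 0.26, adjusted p = 0.044), and the latter stood at 0.71 without replicate 4. These were 2 of 24, against 6.42% of all genes, and without replicate 4 there were 11 of 24, 6 higher and 5 lower, against 36.5% of all genes.

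Among genes that take microtubules apart, 3 of 10 were lower in the (+dox) comparison and 0 were higher, against 13.7% and 10.9% of all genes. *KIF2C*, a depolymerizing kinesin, fell by 0.56 (SE 0.08, edgeR adjusted p = 1.3e-04), *KATNAL1*, of the katanin severing family, fell by 0.66 (SE 0.11, adjusted p = 4.3e-04) and *STMN1*, which sequesters tubulin pairs, fell by 0.30 (SE 0.10, adjusted p = 0.035). *KIF2C* was lower in the (−dox) comparison too, by −0.74 ± 0.17 (adjusted p = 0.031), where 1 of 10 was called, against 6.42% of all genes. Without replicate 4, 5 of 10 were called lower there, against 19.4% of all genes called lower. Of 17 motor genes, 2 were lower and 1 was higher in the (+dox) comparison, against 13.7% and 10.9% of all genes. The kinesin subunits *KIF5C* (−0.63 ± 0.15, adjusted p = 0.0056) and *KLC1* (−0.33 ± 0.11, adjusted p = 0.028) were lower and *KIF3B* (0.26 ± 0.09, adjusted p = 0.034) was higher. None of the lists had a member called between SCR (+dox) and SCR (−dox) by edgeR, where 271 of all genes had an unadjusted p under 0.05 and DESeq2 called 0. Medians of these microtubule lists in the (+dox) comparison ran from −0.19 for the other tubulins to 0.01 for the ring complex, near the median of −0.00 over all genes.

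**Figure D4:**
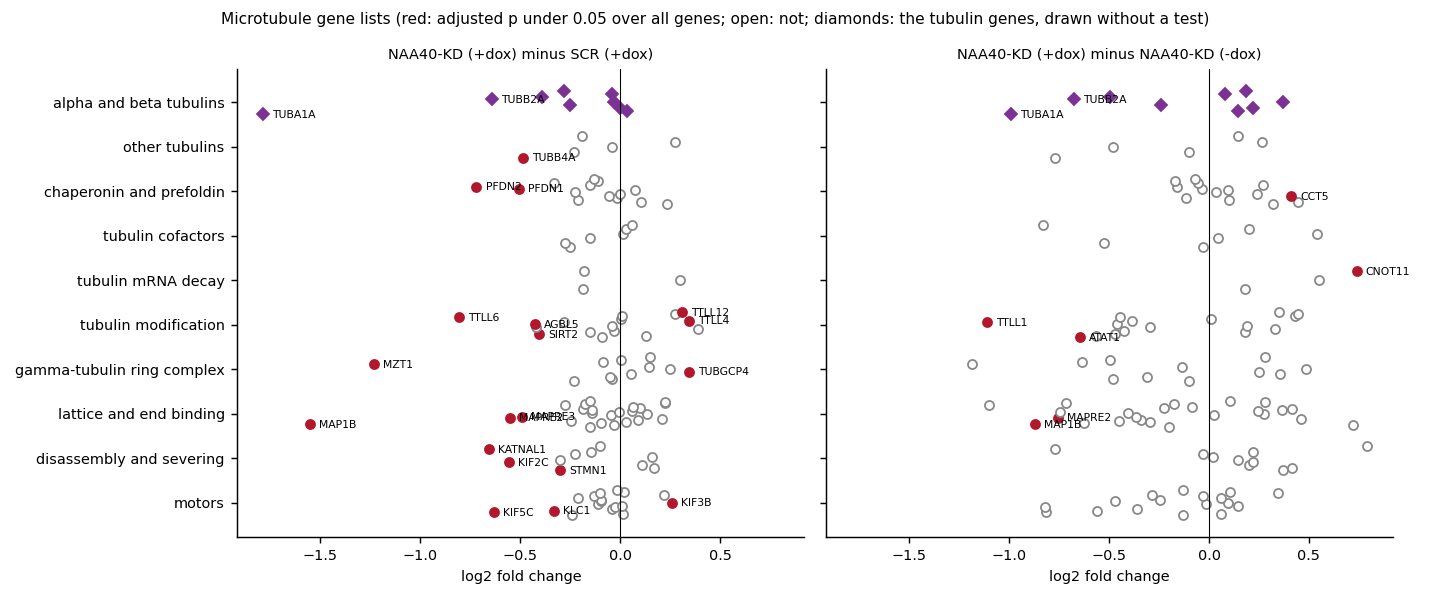
Log2 fold changes (x axis) of the genes of each microtubule list (rows) between NAA40-KD (+dox) and SCR (+dox) and between NAA40-KD (+dox) and NAA40-KD (−dox), with red points for an adjusted p under 0.05, open points for the rest and diamonds for the tubulin genes, drawn without a test. *TUBA1A* at −1.79 and *MAP1B* at −1.55 were the farthest from 0 in the left panel, and most points of every list lay within 0.5 of 0 in that panel.

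Actin served as a reference for the cytoskeleton. *ACTB* was present at 1600 ± 239.8 CPM in SCR (+dox) and 1570 ± 84.6 CPM in NAA40-KD (+dox), and neither it nor *ACTG1* was called in that comparison. In NAA40-KD (−dox) *ACTB* stood at 3285 ± 1249 CPM, higher than in SCR (−dox) by 0.98 ± 0.24 (edgeR, adjusted p = 0.045) and by 0.66 without replicate 4. The epithelial gene *CLDN4*, a claudin, was also higher in that group than in SCR (−dox), by 1.37 ± 0.29 (adjusted p = 0.026) and by 0.97 without replicate 4. The part of these differences in the tubulin levels was not tested.

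The pattern of *TUBA1A* was compared among 11130 genes with a mean of at least 5 CPM over the 16 libraries. The measure was the root mean square difference of log2 CPM after each gene was centred on its mean. The 5 nearest genes were *MRFAP1L1* (0.227), *TRIM15* (0.272), *AREG* (0.275), *TRIML2* (0.284) and *NDRG4* (0.307), where *TUBA1A* itself varied by 0.716 around its mean. *AREG*, which encodes the growth factor amphiregulin, stood at 867.5 CPM in SCR (+dox), 332.8 CPM in NAA40-KD (+dox), 714.7 CPM in SCR (−dox) and 588.2 CPM in NAA40-KD (−dox) as group means. Of the tubulin genes *TUBB2A* was nearest, at 0.497 and rank 181 of 11130, and *TUBA1B* was farthest, at 0.736 and rank 4059.

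The other genes within 250 kb of *TUBA1A*, a window chosen after the values of the tubulin genes were known, were examined for the same differences. Of 12 tested genes that are not tubulins, 6 were lower and 1 was higher in NAA40-KD (+dox) than in SCR (+dox), against 13.7% and 10.9% of all genes. The 6 included 5 of the 5 genes beyond *TUBA1C* on the side of higher coordinates. *PRPH*, which encodes the intermediate filament protein peripherin of neurons, was present at 4.41, 5.15, 5.64 and 4.36 CPM in SCR (+dox) and at 2.00, 1.55, 1.77 and 0.996 CPM in NAA40-KD (+dox), a log2 fold change of −1.64 ± 0.22 (edgeR, adjusted p = 3.0e-05). *C1QL4* was lower by −0.89 ± 0.13 (adjusted p = 8.0e-05), and *SPATS2* (−0.57), *TROAP* (−0.51) and *DNAJC22* (−0.49) were lower by less. *TUBA1B* and *TUBA1C*, which flank *TUBA1A*, stood at 0.03 and −0.00. In the (−dox) comparison 0 of the 12 were called, against 6.42% of all genes, and *PRPH* stood at 0.17 ± 0.29, whereas *TUBA1A* stood at −0.66 ± 0.17. Without replicate 4, 4 of the 12 were called, 2 higher and 2 lower, against 36.5% of all genes, and *PRPH* stood at −0.03 ± 0.25.

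**Figure D5:**
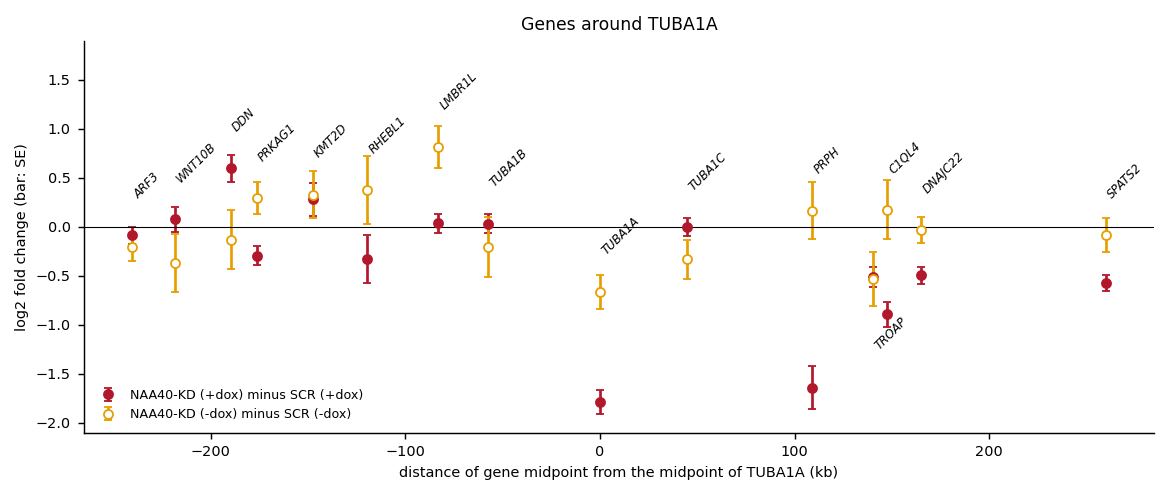
Log2 fold changes (y axis, bars SE) of the tested genes around *TUBA1A* against the distance of their midpoint from that of *TUBA1A* (x axis, kb), for NAA40-KD against SCR in the (+dox) libraries (filled) and in the (−dox) libraries (open). In the (+dox) libraries *PRPH* at −1.64 lay near *TUBA1A* at −1.79, with *TUBA1C* at −0.00 between them.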

How the data were processed

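RNA from 16 HCT116 samples, 4 per group, was sequenced. The authors deposited counts, the whole numbers of STAR-aligned reads that featureCounts gave to a gene, for 33937 genes and without normalization. The study's methods name the mouse build mm10 and the submitters' processing notes name hg38 and GRCm38, while the identifiers are human Ensembl genes, so positions, exon lengths and sequences were taken from GENCODE release 29 (GRCh38). For RNA and libraries the study's methods and the sample labels name different kits. The strand setting and the treatment of reads with several matches are not given in the sources used here.

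Groups followed the labels. From the deposited counts, edgeR 4.0.16 (R 4.3.3; TMM, robust quasi-likelihood F test, two-sided, Benjamini-Hochberg over all genes, called at an adjusted p under 0.05) was fitted on genes with CPM over 1 in at least 4 libraries, each comparison on its own 8 libraries and the interaction on all 16. SE is the size of the log2 fold change over the square root of F. CPM used TMM over all 16 libraries, and RPKM used the length of all annotated exons of a gene. Summed RPKM was compared by an exact two-sided permutation test over 70 arrangements. Total counts of 11065606 to 13855486 limit precision for *TUBB2B* and *TUBB3*. Replicates differed by more than sampling noise (chi-square over its degrees of freedom 1.74 to 140, highest in the pairs with NAA40-KD (−dox) replicate 4), and p-values measure only the spread between these samples. Replicate numbers were not taken to pair the samples: in the comparisons made, 0 to 3 of the 4 same-number correlations were over 0.1. All 4 were over 0.1 (0.20 to 0.65) between SCR (+dox) and NAA40-KD (−dox), which both enter the interaction fit. The scripts were tested on simulated data.

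The tubulin genes and the 12 lists of related genes and markers were chosen with earlier results of these data known. Genes named are all 10 tubulins, *NAA40*, *TTC5*, *SCAPER*, *CNOT11*, *TUBG1*, at most 3 per other list and comparison by lowest adjusted p (mean of at least 5 CPM in a group), and the 5 nearest to *TUBA1A*. The genes around *TUBA1A* were named after their values were seen. No p or count of calls is given for the tubulin genes between lines, nor for *TUBA1A* in any comparison with knockdown libraries. Alternatives were DESeq2 1.42.0, limma-voom 3.58.1, library-size and upper-quartile scaling, no filter, CPM over 1 in every library, 1 fit over all 16 libraries, a block for replicate number, and each library left out. List genes without a matching row are not analysed here.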

Additional observations from a re-analysis of the deposited data

Results flagged for a closer look

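In 3 cases the library NAA40-KD (−dox) replicate 4 lay far above the other 3 libraries of its group by Dixon's criterion at the 95% level, among 48 groups of 4 libraries examined, where chance alone flags about 1 in 20. These were *TUBA1B* at 338.4 CPM (the others 129.1 to 164.5 CPM), *TUBA4A* at 49.7 CPM (27.3 to 29.8 CPM) and *TUBB6* at 140.1 CPM (60.6 to 72.1 CPM).

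The difference between the lines in the log2 fold change by doxycycline label, NAA40-KD minus SCR, was −1.11 for *TUBA1A*, given without a test. Among the genes of the lists it passed the test (edgeR interaction term, adjusted p under 0.05, n = 4 per group) in 9, where 9.22% of all genes passed. By list these were 1 of 14 CCT and prefoldin subunits, 1 of 3 decay genes, 1 of 16 modification genes, 1 of 11 ring complex genes, 1 of 24 lattice or end binders, 1 of 2 actins and 3 of 8 epithelial markers. In the other lists 0 passed, with 6 other tubulins, 6 cofactors, 10 disassembly genes, 17 motors and 3 other cell markers tested. It was positive for *CNOT11* (0.68, adjusted p = 0.017), *TUBGCP3* (0.55, adjusted p = 0.020), a ring complex subunit, and *CCT5* (0.46, adjusted p = 0.050). It was negative for *TTLL1* (−1.30, adjusted p = 0.0037), *CLDN4* (−1.17, adjusted p = 0.023), *KRT8* (−1.15, adjusted p = 0.018), *MAP1B* (−1.08, adjusted p = 0.010), *ACTB* (−0.99, adjusted p = 0.027) and *CDH1* (−0.52, adjusted p = 0.047). Without NAA40-KD (−dox) replicate 4 these 9 kept their sign and passed the test, where 24.2% of all genes passed.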

How the results depend on the processing

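The count of all genes called between the lines in the (+dox) libraries went from 3402 to 966 when all 16 libraries were fitted together. In the (−dox) comparison it was 892, and 1914 with DESeq2, 2951 with all 16 libraries, 82 with the replicate block and 226 to 5021 with 1 library left out, the lowest without SCR (−dox) replicate 4 and the highest without NAA40-KD (−dox) replicate 4. Between the knockdown-line groups it was 1414, and 2526 with DESeq2, 3210 with all 16 libraries, 777 with the replicate block and 380 to 7183 with 1 library left out, the highest without NAA40-KD (−dox) replicate 4. For the interaction it was 1327, and 820 to 3467 with 1 library left out, the highest again without that replicate. Between the SCR groups it was 0, and 1 without a filter. The replicate numbers share only a number: 6 of 16 libraries correlated best with their own number. For the interaction, where SCR (+dox) and NAA40-KD (−dox) libraries of the same number correlated, the block gave 1217 genes and lost 2 of the 9 named calls, *CCT5* and *CDH1*. The cause of these shifts was not tested.

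Of the 8 tubulin genes other than *TUBA1A*, 0 were called between the knockdown-line groups, 1 with DESeq2, 2 with all 16 libraries and 0 to 6 with 1 library left out. For the interaction 0 were called, 1 with DESeq2 and 0 to 5 with 1 library left out. Both highest counts came without NAA40-KD (−dox) replicate 4.

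Of 19 named calls of list genes between the lines in the (+dox) libraries, 13 were lost with all 16 libraries fitted together, 1 without a filter, and 1 to 5 with 1 library left out, while the block lost 0. *AGBL5*, *KATNAL1*, *KIF3B*, *KIF5C*, *KLC1*, *KRT8*, *MAPRE3*, *SIRT2*, *STMN1*, *SYT1*, *TTLL12*, *TUBB4A* and *TUBGCP4* were the 13. In the (−dox) comparison the block lost 9 of 9, no filter 3, and a library left out 0 to 9, with 0 only without NAA40-KD (−dox) replicate 4. Between the knockdown-line groups the block lost 4 of 10, no filter 4, limma-voom 2, and a library left out 0 to 8, with 0 again only without that replicate. Library-size scaling lost 1 call in each of these 2 comparisons. For the interaction it lost 2 of 9, no filter 4, and a library left out 0 to 4.

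With 1 library left out, log2 fold changes near 0 changed sign. Between the knockdown-line groups *TUBA1B* ran from −0.015 to 0.55, *TUBA4A* from −0.34 to 0.0018, *TUBB4B* from −0.082 to 0.42 and *TUBG1* from −0.20 to 0.16. Between the SCR groups *TUBA1B* ran from −0.21 to 0.0089, *TUBB2A* from −0.12 to 0.033, *TUBB3* from −0.089 to 0.23, *TUBB6* from −0.14 to 0.057, *CNOT11* from −0.0045 to 0.11, *SCAPER* from −0.052 to 0.011 and *TTC5* from −0.028 to 0.058. For the interaction *TUBA4A* ran from −0.27 to 0.058 and *TUBG1* from −0.066 to 0.28. The difference of the alpha sum between the knockdown-line groups ran from −1.51 to 25.9 RPKM. *TUBA1A* stayed below SCR in both line comparisons under every alternative run.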
